A study of Mus musculus with 2 samples.

Results

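The 46 genes described here encode parts of the contractile apparatus of skeletal muscle, its calcium handling and its energy supply, and all 46 were found by their symbols among the 24346 genes listed for both libraries. They comprise thick filament (11 genes), thin filament (11 genes), Z-disc and M-line scaffold (12 genes), calcium handling (8 genes) and energy or oxygen supply (4 genes). Of these, 13 were classed as genes mainly of fast fibres, 6 as mainly of slow fibres and 2 as of developing muscle. The list was set by gene function and not by a measured value, but it was drawn up with earlier results of these data known. The data are bulk mRNA sequencing values, as FPKM, of dorsal skin wounds of C57BL/6J neonatal littermates that were wounded at 1 day of age by a full-thickness incision and sampled 24 h later. One group was WT and the other was PU.1-/- (labelled PU.1_KO), with 1 library each, and no treatment other than the wound is named. PU.1-/- pups lack the transcription factor PU.1 in every cell from conception and, per the study's introduction, have no neutrophils, macrophages, mast cells or T cells. How many pups went into a library, and of which sex, is not stated, and the design text calls the wounds excisional where the methods describe incisions. There are no replicates and hence no test, and every difference below is a difference between these 2 libraries.

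Skeletal muscle reaches the skin of mice as the panniculus carnosus, a thin sheet beneath the dermis and its fat, and a full-thickness wound cuts through it. Within a muscle fibre, myosin heavy and light chains form the thick filament, actin with troponin and nebulin forms the thin filament, and titin, alpha-actinin and desmin hold both in register. A calcium pulse from the sarcoplasmic reticulum switches contraction on through troponin C, and the pump encoded by Atp2a1 takes the calcium back. Several of these proteins come as fast and slow versions made by separate genes, and the myosin heavy chains also as developmental ones. As muscle matures, the embryonic and neonatal myosins are replaced by the adult ones. Where both partners are made only in muscle fibres, their ratio within a library does not depend on how much muscle of a given fibre mix the piece of tissue held.

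Spi1, which encodes PU.1, was at 35.4 FPKM (WT) against 1.45 FPKM (PU.1-/-). All 10 macrophage markers were at least 2-fold lower in the PU.1-/- library, beside 4.34% of all listed genes. Their summed level was 722 FPKM (WT) against 5.74 FPKM (PU.1-/-). Xist was listed at 0 in WT and at 9.48 FPKM in PU.1-/-, and Uty, Kdm5d, Eif2s3y and Ddx3y, on the Y chromosome, had 2.16 to 38.5 FPKM in WT and were each listed at 0 in PU.1-/-, so that sex and genotype cannot be told apart in any value below. Depth was estimated from the low values, which move in whole-read steps, at 13.9 M fragments for WT and 15.98 M for PU.1-/-. Intervals given with ratios are exact binomial (Clopper-Pearson) intervals at 95% on read numbers estimated from that depth, and they cover counting error only.

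Nearly the whole set was more abundant in the PU.1-/- wound. The summed level of the 46 genes was 12161 FPKM (WT) against 20275 FPKM (PU.1-/-), or 1.71% and 2.95% of all FPKM, a ratio of 1.67. Of the 46 genes, 43 had a PU.1-/- over WT ratio above 1 and 41 had a counting interval wholly above 1. The median log2 ratio of the set was 0.89, beside -0.01 over the 16298 genes that reached 0.1 FPKM in either library and -0.01 over the 6538 genes of at least 10 FPKM in both. At least 2-fold higher were 13 of the 46, where 2.32% of all 24346 listed genes were, and none was at least 2-fold lower, where 4.34% of all genes were. Of the 13, only 5 had a counting interval wholly above 2 (Cacng1, Tnni1, Mybph, Ttn and Atp2a1), and that of Myh7 held 1. A ratio of at least 1.5 was reached by 38 of the 46, beside 5.79% of all genes, and a ratio that low in the other direction by Mb alone, beside 7.67%. None differed 3-fold, where 0.616% of all genes were at least 3-fold higher and 2.8% at least 3-fold lower. Among the 38 members that reached 10 FPKM in 1 or both libraries, 33 were at least 1.5-fold higher and 9 at least 2-fold higher, beside 3.43% and 0.882% of the 7256 genes at that level. None of the 38 was 1.5-fold lower, beside 5.25% of those genes, or 2-fold lower, beside 2.88%. Closest to the 2-fold line were Myh8 above it, with a log2 ratio of 1.01, and Myom2 below it, with 0.99. In bulk tissue a larger number of muscle fibres and more RNA per fibre cannot be told apart, nor can a deeper or wider piece of tissue.

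**Figure D1:**
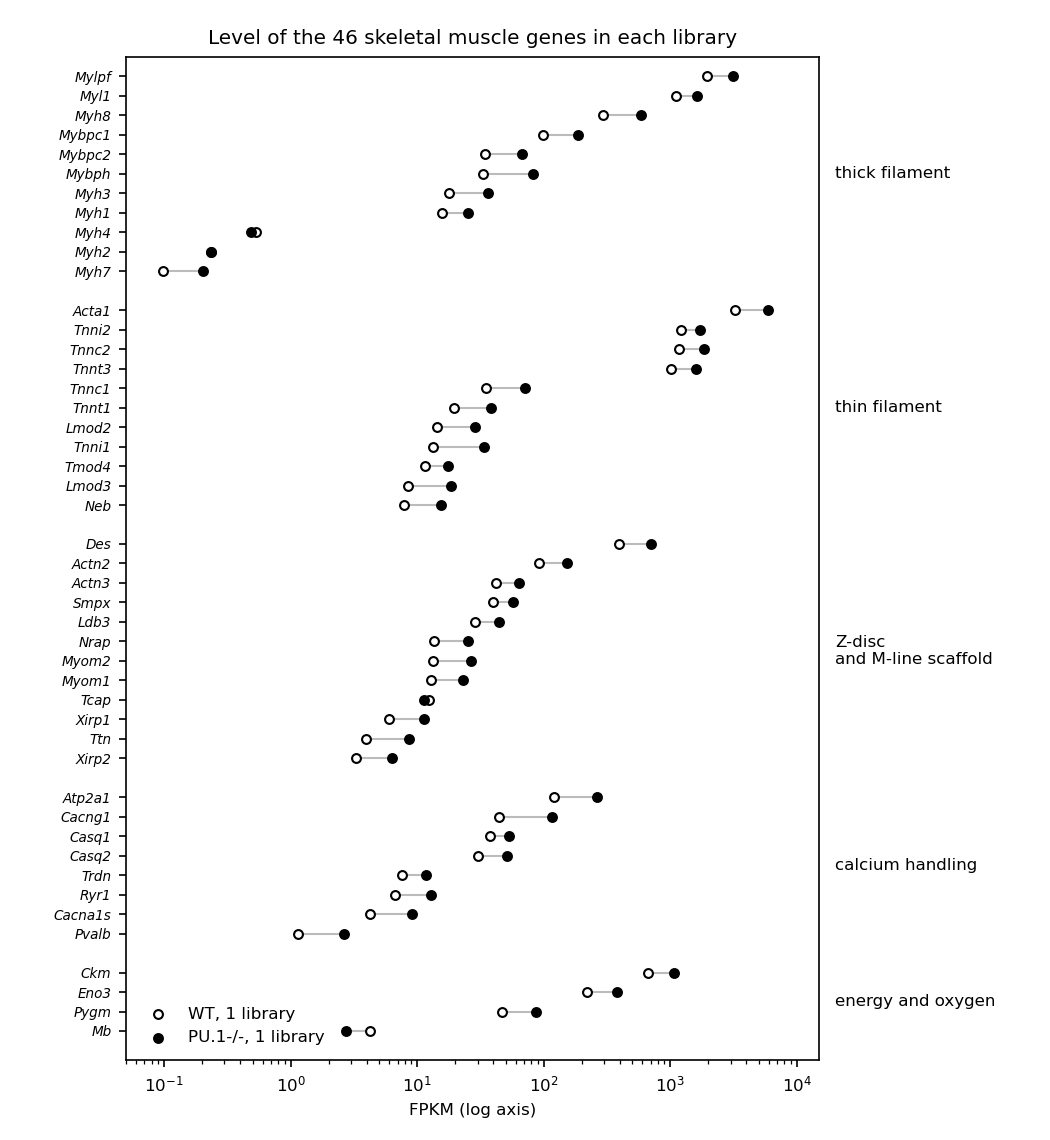
FPKM (log axis) of each of the 46 genes, grouped by role and ordered by WT level, with the WT library as open circles and the PU.1-/- library as filled circles (1 library each). Filled circles lie to the right of open ones for all but Myh4, Tcap and Mb, and those of Myh2 coincide.

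**Figure D2:**
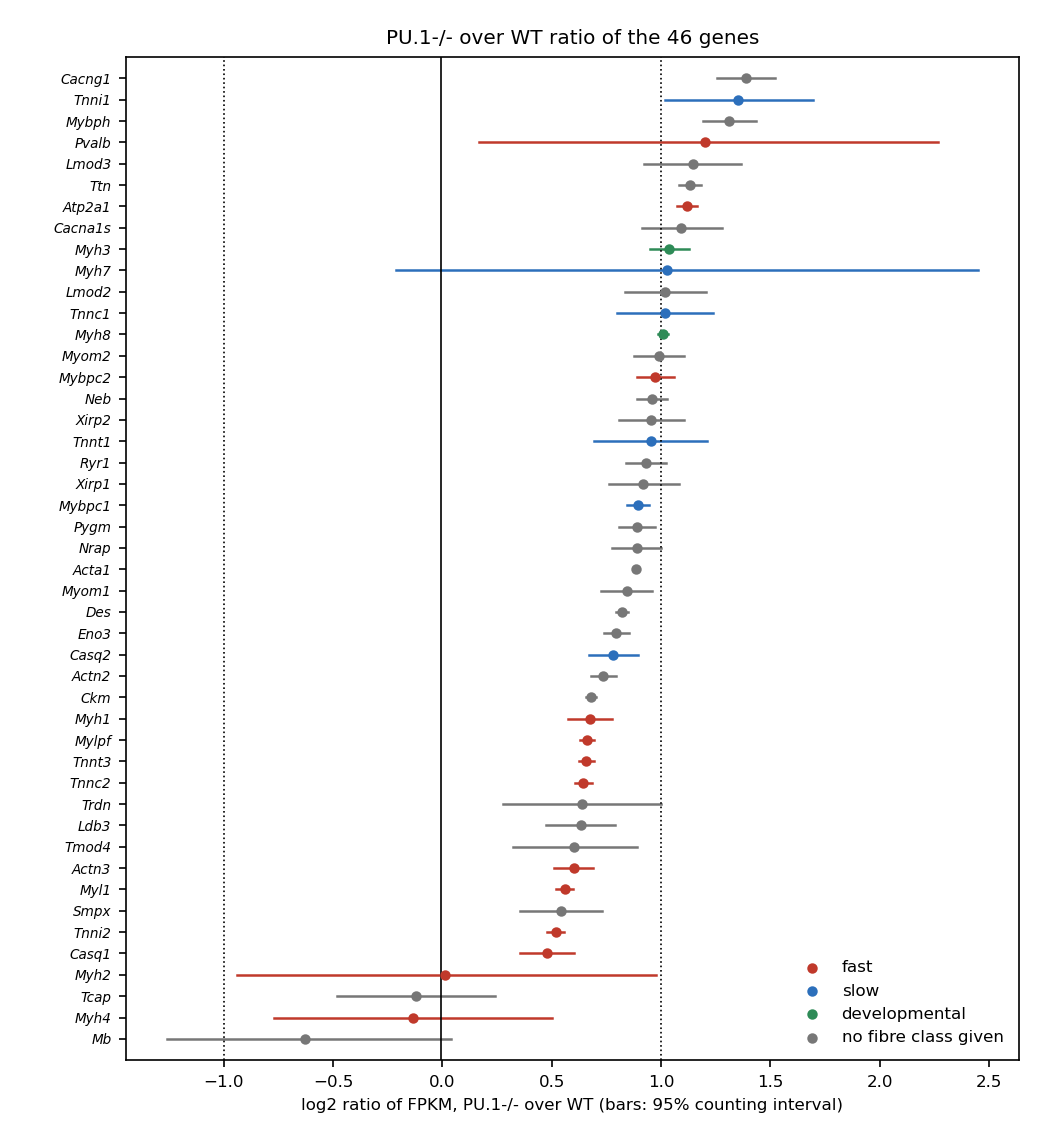
Log2 ratio of PU.1-/- over WT for the 46 genes with 95% counting intervals, coloured by fibre class. The solid line is the median of genes of at least 10 FPKM in both libraries (-0.01) and the dotted lines mark 2-fold. Of the 13 fast genes 8 lie between 0.48 (Casq1) and 0.67 (Myh1), and slow and developmental genes lie between 0.78 (Casq2) and 1.35 (Tnni1).

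Levels ranged from 0.0985 FPKM for Myh7 to 3224 FPKM for Acta1 in WT. Skeletal alpha-actin, Acta1, the actin of the thin filament, was the most abundant of the 46 genes, with 3224 FPKM (WT) against 5955 FPKM (PU.1-/-), a ratio of 1.85 (interval 1.83 to 1.87). Acta1, Mylpf, Tnni2, Tnnc2 and Myl1 together made up 71.4% of the summed level of the 46 genes in WT and 70.4% in PU.1-/-. At the other end Myh2, Myh4 and Myh7 stayed below 1 FPKM in both libraries. Fast light chains and troponins and the neonatal myosin were thus abundant, and the IIa, IIb and slow myosins were scarce.

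Among the myosin heavy chains, the motor of the thick filament, the neonatal gene Myh8 dominated. Myh8, at chr11:67277124-67308634 of mm10, had 294 FPKM (WT) against 591 FPKM (PU.1-/-), a ratio of 2.01 (interval 1.98 to 2.04). Its share of the summed FPKM of the 6 heavy chains listed was 89.5% (89.2% to 89.9%) in WT and 90.5% (90.2% to 90.7%) in PU.1-/-. The embryonic gene Myh3 had 17.8 and 36.5 FPKM, a ratio of 2.05 (1.93 to 2.18), and held 5.42% (5.15% to 5.70%) of the family in WT and 5.58% (5.40% to 5.77%) in PU.1-/-. The adult fast gene Myh1, which encodes the IIx myosin, had 15.7 and 25.0 FPKM, a ratio of 1.60 (1.49 to 1.71). Its share was lower in PU.1-/-, at 3.82% (3.67% to 3.98%) against 4.77% (4.52% to 5.04%) in WT, and the intervals do not meet. Relative to Myh8, Myh1 was 0.793 times as abundant in PU.1-/- as in WT (0.739 to 0.852), whereas Myh3 kept pace with Myh8 within counting error (1.02 times, 0.957 to 1.09). The rarest chains were the IIb gene Myh4, at 0.531 and 0.484 FPKM, the IIa gene Myh2, at 0.233 and 0.235 FPKM, and the slow gene Myh7, at 0.0985 and 0.204 FPKM. These rest on about 43 and 45, 19 and 22, and 8 and 19 reads, and each counting interval holds a ratio of 1, for Myh7 from 0.864 to 5.46.

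Reads of the heavy chains can be hard to assign, since Myh3, Myh2, Myh1, Myh4 and Myh8 lie side by side on chromosome 11 and their coding sequences are alike. The coding sequence of Myh8 is identical to that of Myh1 at 89.2% of aligned bases, to that of Myh2 at 89.1%, to that of Myh4 at 87.9% and to that of Myh3 at 80.8%. Of all 75-base windows of the transcript, the length of a read here, 12.9% in Myh8, 17.0% in Myh1, 16.3% in Myh2, 9.68% in Myh4 and 1.86% in Myh3 also occur in a transcript of another gene. For Myh7 15.5% are shared with the cardiac gene Myh6. Among the other members, Myl1 shares 22.9% of its windows with the pseudogene Mylf-ps and Acta1 shares 0.437%, and the remaining 38 share none. How the authors' counting split such reads is not given, so that the low values of Myh2, Myh4 and Myh7 are uncertain. The share of Myh1 and its ratio to Myh8 depend on that split as well. Some windows of Myh1 occur in Myh8, which had 294 FPKM beside 15.7 FPKM of Myh1 in WT, and the counting intervals do not cover this. The window where the 5 chromosome 11 genes differ least, in a single coding exon of each (chr11:67297197-67297271 in exon 23 of Myh8), shows how alike they are, with capitals at bases that differ from Myh8 (GENCODE transcripts, mm10, coding strand):
Myh8: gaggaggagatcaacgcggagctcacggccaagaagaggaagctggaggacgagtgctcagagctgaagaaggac
Myh1: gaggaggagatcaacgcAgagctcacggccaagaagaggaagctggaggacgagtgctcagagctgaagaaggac
Myh2: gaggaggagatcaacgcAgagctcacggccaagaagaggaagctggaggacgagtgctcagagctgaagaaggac
Myh4: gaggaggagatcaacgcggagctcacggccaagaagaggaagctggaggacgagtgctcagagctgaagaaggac
Myh3: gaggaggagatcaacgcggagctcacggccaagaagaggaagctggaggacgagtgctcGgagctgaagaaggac
A read from this window cannot be told apart between Myh8 and Myh4. The window where they differ most (chr11:67278987-67279061 in exon 3 of Myh8), with capitals used in the same way, separates every gene:
Myh8: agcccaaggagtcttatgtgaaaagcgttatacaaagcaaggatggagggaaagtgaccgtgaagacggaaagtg
Myh1: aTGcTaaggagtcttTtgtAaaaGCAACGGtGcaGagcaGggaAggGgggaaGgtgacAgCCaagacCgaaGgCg
Myh2: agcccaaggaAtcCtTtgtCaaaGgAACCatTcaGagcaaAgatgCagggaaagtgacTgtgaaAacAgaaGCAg
Myh4: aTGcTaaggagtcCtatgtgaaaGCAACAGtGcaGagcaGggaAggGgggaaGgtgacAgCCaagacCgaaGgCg
Myh3: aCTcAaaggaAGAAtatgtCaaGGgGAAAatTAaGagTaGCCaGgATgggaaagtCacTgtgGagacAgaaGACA
In it Myh1 differs from Myh8 at 24 of 75 bases and Myh3 at 32.

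The other thick filament genes differed in size of the change. The fast regulatory light chain Mylpf had 1969 and 3113 FPKM, a ratio of 1.58 (1.55 to 1.62), and the essential light chain Myl1 had 1109 and 1634 FPKM, a ratio of 1.47 (1.44 to 1.51). Both ratios were below that of Myh8, the heavy chain they bind. Myosin-binding protein C, which lies along the thick filament, was higher in its slow form Mybpc1, with 99.7 and 185 FPKM, and in its fast form Mybpc2, with 34.3 and 67.4 FPKM. Their ratios were 1.86 (1.80 to 1.92) and 1.96 (1.85 to 2.08). The related gene Mybph, encoding myosin-binding protein H, had 33.1 FPKM (WT) against 82.2 FPKM (PU.1-/-), and its ratio of 2.48 (2.28 to 2.71) was the third largest of the 46.

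In the thin filament, the slow troponins were further apart between the libraries than the fast ones. Troponin I, the inhibitory subunit, had 1207 and 1729 FPKM in its fast form Tnni2, a ratio of 1.43 (1.39 to 1.47). Its slow form Tnni1 had 13.3 and 33.9 FPKM, a ratio of 2.56 (2.02 to 3.24). Troponin C, the calcium sensor, had 1179 and 1844 FPKM in its fast form Tnnc2, a ratio of 1.56 (1.52 to 1.61), and 35.0 and 70.9 FPKM in its slow form Tnnc1, a ratio of 2.02 (1.74 to 2.35). Troponin T, which ties the complex to tropomyosin, had 1007 and 1588 FPKM in its fast form Tnnt3, a ratio of 1.58 (1.54 to 1.62), and 19.7 and 38.1 FPKM in its slow form Tnnt1, a ratio of 1.94 (1.62 to 2.31). Fast troponins were thus far more abundant in both wounds, and the slow ones were a small part that was larger in PU.1-/-. Nebulin, Neb, the ruler of the thin filament, had 7.90 and 15.3 FPKM. The actin nucleators Lmod2 and Lmod3 had 14.2 and 28.9 FPKM and 8.44 and 18.6 FPKM, with ratios of 2.03 (1.78 to 2.30) and 2.21 (1.90 to 2.58). The pointed-end cap Tmod4 changed less, from 11.6 to 17.6 FPKM, a ratio of 1.52 (1.251 to 1.85).

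Slow and fast partners of the same protein give 5 ratios, for which the intervals are exact conditional ones on the estimated reads. The slow-over-fast ratio of troponin I was 1.78 times higher in PU.1-/- than in WT (interval 1.41 to 2.26), that of troponin C 1.29 times (1.11 to 1.51), that of calsequestrin 1.23 times (1.098 to 1.39) and that of troponin T 1.23 times (1.02 to 1.47). Myosin-binding protein C differed from these, with a slow-over-fast ratio of 0.947 times the WT one (0.884 to 1.01). The slow myosin Myh7 was at only 0.0985 FPKM (WT) and 0.204 FPKM (PU.1-/-). In which fibres the slow forms were made was not tested, so these ratios do not measure slow fibre content. As shares of the pair, Tnni1 made up 1.09% (0.885% to 1.32%) of troponin I in WT and 1.93% (1.71% to 2.16%) in PU.1-/-. Tnnc1 made up 2.88% (2.54% to 3.26%) and 3.70% (3.41% to 4.01%) of troponin C, and Tnnt1 1.92% (1.65% to 2.21%) and 2.35% (2.13% to 2.58%) of troponin T. Over the classes, the median log2 ratio was 0.64 for the 13 fast genes, 0.98 for the 6 slow genes and 1.02 for Myh3 and Myh8, and 0.89 for the 25 genes with no fibre class. Of the fast genes 2 were at least 2-fold higher, of the slow genes 3, and of the developmental genes both, beside 2.32% of all listed genes. The fast ones were Atp2a1 and Pvalb, the latter from about 12 and 31 reads. The slow ones were Tnni1, Tnnc1 and Myh7, the last from about 8 and 19 reads with an interval that holds 1. Among genes of at least 1 FPKM in 1 or both libraries, the fast and slow medians were 0.66 and 0.95. Fast genes were not alike among themselves, since Atp2a1, Mybpc2 and Pvalb lay with the slow genes. Myh2 and Myh4 lay below the other fast genes, with log2 ratios of 0.01 and -0.13.

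**Figure D3:**
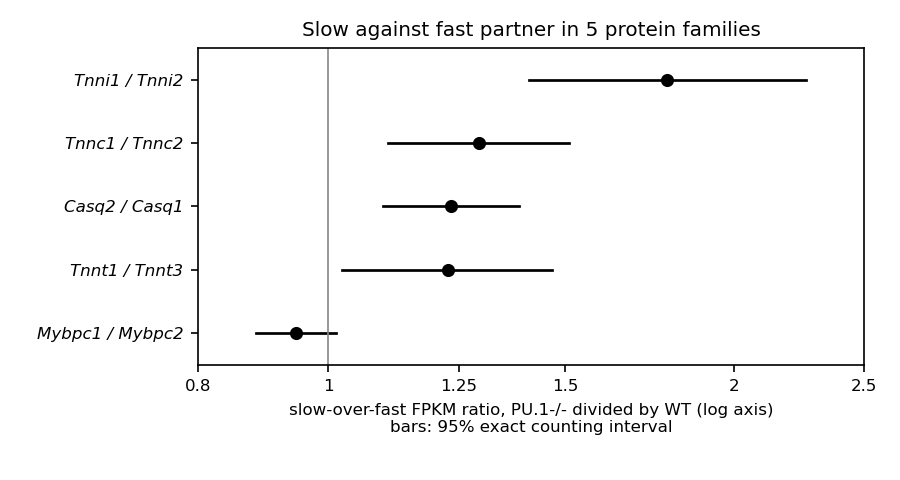
Slow-over-fast FPKM ratio in PU.1-/- divided by that in WT (log axis) for 5 pairs, with 95% exact counting intervals. A value of 1 means the same balance in both libraries, and 4 pairs lie above it, from 1.23 to 1.78, while Mybpc1 / Mybpc2 is at 0.947.

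Promoters of some of these genes hold letters that muscle transcription factors are known to bind. The 250 bases before the start site, from RefSeq on GRCm38.p6, were found for 36 of the 46 genes and searched on both strands for CAGCTG and CACCTG, which are E-box forms bound by MyoD family factors, for the MEF2 consensus, for the CArG box of serum response factor and for TATAAA. The E-box CAGCTG occurred in 15 of the 36 (41.7%), beside 14.3% of the 17191 listed genes with a promoter of this length, and the MEF2 consensus in 7 (19.4%) beside 2.996%. The CArG box occurred in 4 (11.1%) beside 1.51%, the E-box CACCTG in 8 (22.2%) beside 19.2%, and TATAAA in 8 (22.2%) beside 13.1%. Such matches describe the letters and are not evidence of binding. The promoters of the most abundant gene Acta1 (chr8:123894776-123895025), the leading heavy chain Myh8 (chr11:67276874-67277123), Mybph (chr1:134193198-134193447) and the slow and fast troponin C genes Tnnc1 (chr14:31208062-31208311) and Tnnc2 (chr2:164779735-164779984) are shown 5′ to 3′ on the strand of the gene (minus for Acta1 and Tnnc2), with the matches in capitals:
Acta1: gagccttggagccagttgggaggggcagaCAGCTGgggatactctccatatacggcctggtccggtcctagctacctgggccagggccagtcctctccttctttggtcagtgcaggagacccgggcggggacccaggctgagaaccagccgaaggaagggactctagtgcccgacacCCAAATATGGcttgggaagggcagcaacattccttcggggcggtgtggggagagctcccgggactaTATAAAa
Myh8: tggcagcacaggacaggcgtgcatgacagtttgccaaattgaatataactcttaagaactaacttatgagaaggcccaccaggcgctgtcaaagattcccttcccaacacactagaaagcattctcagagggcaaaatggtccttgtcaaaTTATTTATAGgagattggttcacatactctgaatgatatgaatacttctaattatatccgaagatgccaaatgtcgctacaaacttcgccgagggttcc
Mybph: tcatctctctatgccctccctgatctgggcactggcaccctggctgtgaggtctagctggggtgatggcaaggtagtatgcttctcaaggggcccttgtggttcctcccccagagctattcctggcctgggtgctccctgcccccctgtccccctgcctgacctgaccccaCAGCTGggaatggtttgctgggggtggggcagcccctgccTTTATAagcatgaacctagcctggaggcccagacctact
Tnnc1: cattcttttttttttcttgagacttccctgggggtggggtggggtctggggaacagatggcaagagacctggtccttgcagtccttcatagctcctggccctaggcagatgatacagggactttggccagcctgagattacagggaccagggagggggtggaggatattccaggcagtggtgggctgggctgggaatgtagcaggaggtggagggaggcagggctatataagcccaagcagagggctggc
Tnnc2: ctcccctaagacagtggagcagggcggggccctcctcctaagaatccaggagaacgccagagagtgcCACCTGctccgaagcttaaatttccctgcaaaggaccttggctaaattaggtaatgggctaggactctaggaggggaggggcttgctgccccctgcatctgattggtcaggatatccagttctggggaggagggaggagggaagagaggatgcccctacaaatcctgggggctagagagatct
Acta1 holds CAGCTG, a CArG box and TATAAA, and Myh8 holds a MEF2 match that overlaps its TATAAA. Mybph holds CAGCTG and TATAAA, and Tnnc2 holds CACCTG. No match was found in this window of Tnnc1.

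Scaffold genes of the Z-disc and M-line were higher, with the exception of Tcap. Desmin, Des, the intermediate filament around the Z-disc, was the most abundant of them, with 396 and 699 FPKM, a ratio of 1.77 (1.73 to 1.80). Actn2 and the fast form Actn3, which crosslink actin at the Z-disc, had 92.1 and 153 FPKM and 42.1 and 63.8 FPKM. Titin, Ttn, the spring that spans the sarcomere from Z-disc to M-line, had 3.96 FPKM (WT) against 8.67 FPKM (PU.1-/-), a ratio of 2.19 (2.11 to 2.27). The M-line genes Myom1 and Myom2 had ratios of 1.79 (1.66 to 1.94) and 1.99 (1.84 to 2.15). Xirp1 and Xirp2, whose Xin proteins repair and remodel the sites where myofibrils attach, had 6.02 and 11.4 FPKM and 3.27 and 6.34 FPKM, and the nebulin-related anchor Nrap had 13.6 and 25.1 FPKM. The Z-disc adaptor Ldb3 had 28.5 and 44.2 FPKM, and Smpx, the only member on the X chromosome, had 39.5 and 57.6 FPKM, a ratio of 1.46 (1.28 to 1.66). Telethonin, Tcap, which caps the end of titin, stood apart with 12.4 FPKM (WT) against 11.3 FPKM (PU.1-/-), a ratio of 0.919 (0.715 to 1.18). The intervals of Tcap and Ttn, partners in the Z-disc, do not meet, but that of Tcap holds a ratio of 1. Their shortest transcripts were 948 nt (Tcap) and 81843 nt (Ttn), and the part of length in their difference was not tested.

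Calcium handling genes had a median log2 ratio of 1.01 over 8 genes, beside 0.89 over the 46. At least 2-fold higher were 4 of the 8, beside 13 of the 46 and 2.32% of all 24346 listed genes. Cacng1, the gamma subunit of the voltage-sensing calcium channel in the T-tubule, had 44.1 FPKM (WT) against 115 FPKM (PU.1-/-), and its ratio of 2.62 (2.39 to 2.87) was the largest of the 46. The pore subunit of the same channel, Cacna1s, had 4.26 and 9.09 FPKM, a ratio of 2.13 (1.88 to 2.43). The release channel of the reticulum, Ryr1, to which it is coupled, had 6.74 and 12.9 FPKM, a ratio of 1.91 (1.79 to 2.03). The calcium pump Atp2a1, of fast fibres, had 121 and 262 FPKM, a ratio of 2.17 (2.104 to 2.24). The calcium store proteins changed less. Calsequestrin had 37.9 and 52.8 FPKM in its fast form Casq1, a ratio of 1.39 (1.28 to 1.52), and 30.01 and 51.6 FPKM in its slow and cardiac form Casq2, a ratio of 1.72 (1.59 to 1.86). Triadin, Trdn, which anchors calsequestrin to the release channel, had 7.56 and 11.8 FPKM, a ratio of 1.56 (1.21 to 2.0). The calcium buffer parvalbumin, Pvalb, abundant in adult fast fibres, was low, at 1.15 and 2.64 FPKM from about 12 and 31 reads, and its interval ran from 1.12 to 4.81.

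Of the energy and oxygen genes, 3 were higher and Mb was lower. Creatine kinase, Ckm, which regenerates ATP in the fibre, had 674 and 1080 FPKM, a ratio of 1.60 (1.58 to 1.63). The muscle enolase Eno3 had 219 and 381 FPKM, a ratio of 1.73 (1.67 to 1.80), and glycogen phosphorylase, Pygm, had 46.9 and 86.9 FPKM, a ratio of 1.85 (1.75 to 1.96). Myoglobin, Mb, the oxygen store of oxidative and cardiac fibres, had 4.22 FPKM (WT) against 2.73 FPKM (PU.1-/-), a ratio of 0.647 (0.417 to 1.03) from about 49 and 37 reads. Its interval holds 1, as do those of Tcap, Myh2, Myh4 and Myh7, and these 5 are the only members of which this is true.

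The ratio also went with transcript length, in the 46 genes and in the libraries as a whole. Over the 43 members of at least 1 FPKM in both libraries, Spearman's rho between transcript length and log2 ratio was 0.36, and over the 6315 genes of at least 10 FPKM in both it was 0.24. The log2 ratio also went with level, with a rho against WT FPKM of -0.29 over the 43 members and -0.20 over 6538 genes, where the WT value enters both measures. The fast troponins had 1007 to 1207 FPKM in WT and the slow ones 13.3 to 35.0 FPKM, and the part of level in their difference was not tested. These are correlations across genes of the same 2 libraries and not across replicates. Members under 1200 nt had a median log2 ratio of 0.64 (13 genes), those from 1200 to 3000 nt 0.79 (13 genes) and longer ones 0.95 (17 genes), beside -0.09, -0.02 and 0.06 for all genes of at least 10 FPKM in both libraries of the same lengths. When the median of genes in the same decile of length was subtracted, a step added after the data were seen, the median of the 46 was 0.82 and the medians of fast, slow and developmental genes were 0.66, 0.97 and 0.92. With it 10 of the 46 were at least 2-fold higher, and Myh3, Myh7, Myh8 and Cacna1s were no longer among them while Tnnt1 was. The shortest transcripts of the fast and slow troponins ran from 700 nt for Tnnc2 to 955 nt for Tnnt3, and the part of length in their difference was not tested.

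**Figure D4:**
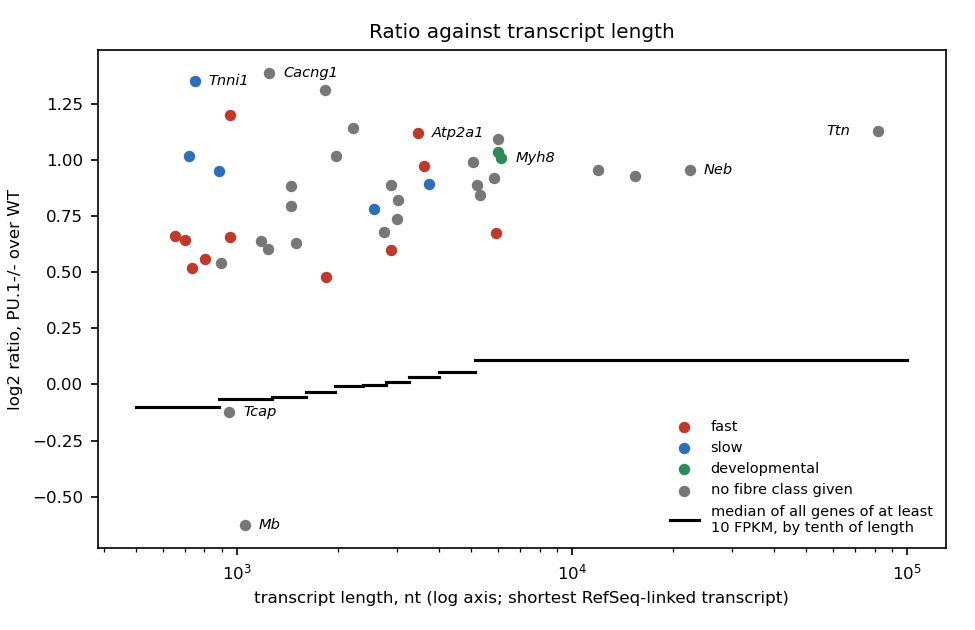
Log2 ratio of PU.1-/- over WT against transcript length (log axis) for the 43 members of at least 1 FPKM in both libraries, coloured by fibre class. Black steps are the median of all genes of at least 10 FPKM in both libraries by decile of length, from -0.10 in the shortest to 0.11 in the longest, and all members but Tcap and Mb lie above them.

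Most of a list of 69 other skeletal muscle genes were also higher. Of these 59 were above a log2 ratio of 0, and the median was 0.77. At least 2-fold higher were 16 of the 69, where 2.32% of all listed genes were. Myl2 alone was at least 2-fold lower, where 4.34% of all listed genes were. It was listed at 0.344 FPKM in WT and at 0 in PU.1-/-, from about 2 and 0 reads, and its interval holds 1. Those that reached 10 FPKM and were at least 2-fold higher fall into a few roles. Mylk2, the kinase of the skeletal regulatory light chain, had 4.73 and 12.8 FPKM, a ratio of 2.71 (2.29 to 3.23). The ubiquitin ligases of muscle protein turnover, Fbxo32 and Trim63, had 16.1 and 37.8 FPKM and 54.2 and 114 FPKM. Klhl40, which stabilizes thin filament proteins, had 16.04 and 36.3 FPKM, and the cardiac and embryonic actin Actc1 had 51.4 and 117 FPKM. Genes of the membrane and T-tubule included Cav3 (77.6 and 159 FPKM), Sgca (6.28 and 14.6 FPKM) and the channel subunit Cacnb1 (13.3 and 28.4 FPKM). The Z-disc genes Mypn and Csrp3 had 5.76 and 12.7 FPKM and 34.1 and 68.5 FPKM, and the calcium-binding reticulum protein Hrc had 7.92 and 17.3 FPKM. The slow light chains Myl2 and Myl3 were near 0, the latter at 0.210 and 0.366 FPKM, as was the slow heavy chain Myh7, while the slow troponins, Mybpc1 and Casq2 were detected at 13.3 FPKM or more.

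Markers of other cell types did not all move with muscle. For the counts that follow, 2.32% of all 24346 listed genes were at least 2-fold higher and 4.34% at least 2-fold lower. Cardiac markers were near 0 for Myh6, Nppa, Tnni3 and Ryr2, each below 0.4 FPKM in both libraries, while Myl7 had 1.53 and 2.0 FPKM and Nppb 11.3 and 7.51 FPKM, and the 6 had a summed level of 13.3 FPKM (WT) against 10.02 FPKM (PU.1-/-). Smooth muscle markers, which include the vessel gene Myh11, had a summed level of 151 and 144 FPKM and a median log2 ratio of -0.14 (7 genes, none past 2-fold). Myoblast and satellite cell markers were higher for 6 of 6, with a median of 1.24 and a summed level of 41.8 and 119 FPKM. At least 2-fold higher were 4 of them, Myod1, Myog, Mymk and Mymx. Most of the sum came from Myog (22.1 and 66.6 FPKM), Mymk (10.9 and 28.9 FPKM) and Mymx (5.80 and 17.8 FPKM). Pax7 was low and nearly level, at 0.443 and 0.493 FPKM (log2 ratio 0.16), and Myf5 had 0.693 and 1.17 FPKM. Adipocyte markers, of the fat that lies over the panniculus, had a median of -0.76, with 4 of 10 at least 2-fold lower and none higher, and a summed level of 4143 and 3425 FPKM. Fibroblast and keratinocyte markers had medians of 0.25 and 0.24 (10 genes each, none past 2-fold), endothelial markers 0.15 (10 genes, Vwf alone at least 2-fold higher) and Schwann cell markers 0.50 (5 genes, none past 2-fold). Neutrophil markers had a median of -3.82, with 9 of 10 at least 2-fold lower. No marker of the smooth muscle, adipocyte, fibroblast or keratinocyte lists was listed at 0. The part that the layers in each piece of tissue, the sex of the pups and the absent leukocytes had in the muscle values was not tested.

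**Figure D5:**
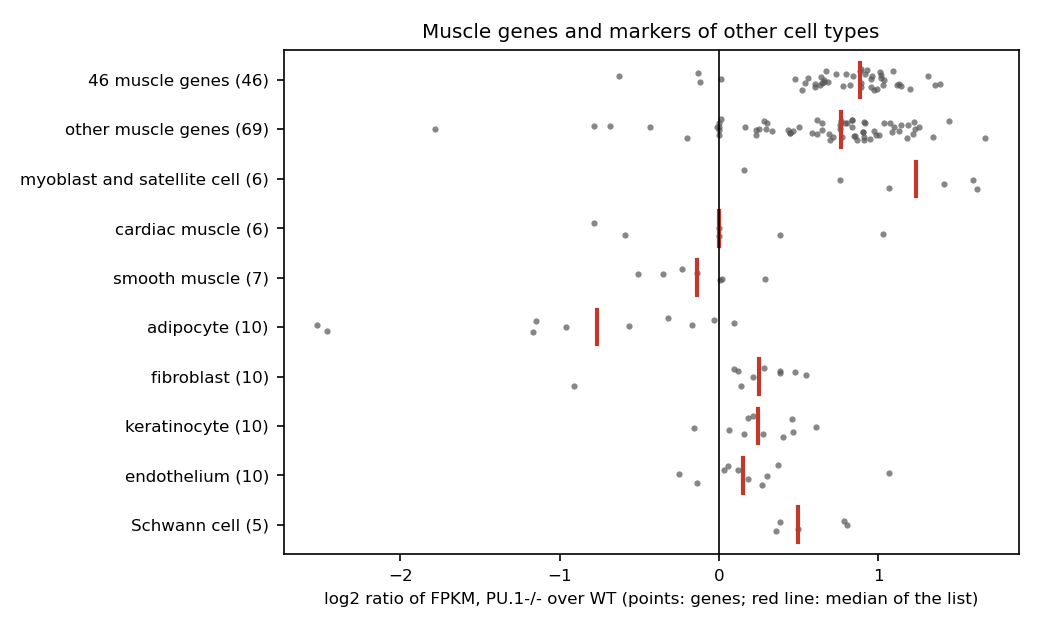
Log2 ratio of PU.1-/- over WT for each gene (points) of 10 lists, with the number of genes in parentheses and the median as a red line. The 46 muscle genes (median 0.89), the other muscle genes (0.77) and the myoblast list (1.24) lie to the right, smooth muscle (-0.14) and adipocyte markers (-0.76) to the left.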

How the data were processed

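Bulk mRNA of 1 WT and 1 PU.1-/- skin wound library was read as single-end reads of 75 bases from a stranded kit. The authors mapped the reads to mm10 and deposited FPKM values, which the methods credit to Cuffnorm version 2.2.1. The submitters' processing notes name TopHat2 2.1.1, Bowtie2 2.2.8, SAMtools 0.1.18 and Cuffdiff 2.2.1. The annotation was not given in the sources used here, nor were the counting settings.

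FPKM below 0.1 were raised to 0.1, the PU.1-/- over WT ratio was taken, and ratios of at least 2 were counted. Read numbers came from genes whose 2 values form a ratio of whole reads (tolerance 2e-05, at most 30 reads, 1671 genes with a single RefSeq-linked transcript). Equal read numbers gave a WT over PU.1-/- ratio of 1.15 in 459 low genes. Transcript length less 215 nt placed the most genes within 1% of a single depth, but these were 451 of the 1671 (27.0%), so that read numbers are estimates. The shortest RefSeq-linked GENCODE M21 transcript was used for each member, giving the fewest reads and the widest intervals. Genes named in the text are all 46 members, the other muscle genes past 2-fold that reached 10 FPKM, library checks and marker lists. Myl2, Myl3, Nppb and the partner genes of the closing section were named after their values were seen. Marker lists for macrophages, neutrophils, fibroblasts, keratinocytes, adipocytes, endothelium, Schwann cells, cardiac and smooth muscle and myoblasts were used. Mymk and Mymx were matched through older symbols. Exons of 19 members overlap an exon on the opposite strand, among them those of Myh1, Myh7, Atp2a1, Mybph, Tnnc2 and Mb, and whether counting used strand is not given, so these values are uncertain. Myosin coding sequences were aligned with mafft. Functions were tested on simulated libraries. Centring by length was added after the data were seen. The members and lists were chosen with earlier results of these data known. Analyses used Python 3.11.15 with matplotlib 3.10.9, scipy 1.17.1, numpy 2.4.6 and pandas 2.3.3.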

Additional observations from a re-analysis of the deposited data

How the results depend on the processing

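No paired analysis was possible because each genotype has 1 library, and for the same reason no library could be left out. The number of the 46 genes at least 2-fold higher was 13, and 6 with a pseudocount of 1 FPKM, since low genes are pulled toward a ratio of 1. It was 0 when the median of the 46 was subtracted, and 10 to 17 under the other scalings, floors and filters. A threshold of 1.5 gave 38 higher and 1 lower (Mb), and a threshold of 3 gave 0 higher. Of the 69 other muscle genes 16 were at least 2-fold higher, 44 at a threshold of 1.5 and 1 at a threshold of 3. The shares over all listed genes were 2.32%, 5.79% and 0.616%. The number lower was 1, and it was 2 with a floor of 0.01 FPKM, 3 at a threshold of 1.5, and 0 with a floor of 1 FPKM, a pseudocount of 1 FPKM or a filter at 1 or 5 FPKM. Of all listed genes 4.34% were at least 2-fold lower and 7.67% at least 1.5-fold lower. The median of the 46 lay between 0.79 and 0.93 in 9 alternatives, and those of fast and slow genes between 0.64 and 0.69 and between 0.90 and 1.03. The developmental median was 1.02, and 0.92 when centred on genes of like length. Scaling both libraries to the same FPKM sum gave 17 genes at least 2-fold higher, adding Mybpc2, Myom2, Neb and Xirp2. For the log2 ratios of single genes 337 values stayed within their counting interval and 69 moved out of it, 43 of these where the median of the 46 was subtracted. No gene past 2-fold changed direction, but none of these settings could have reversed one. With shares of estimated reads in place of FPKM, which weights longer transcripts more, the WT share of Casq1 was 46.8% in place of 55.8% and that of Xirp1 46.9% in place of 64.8%, so that the larger partner was Casq2 and Xirp2. Precision was limited by read number for Myh2, Myh4, Myh7, Pvalb and Mb.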

Other observations

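Partners of the 46 genes from the list of other muscle genes, chosen after their values were seen, shifted in both directions. Actc1, Tnnt2 and Myl4, embryonic or cardiac forms that are made in fetal muscle, had a somewhat higher level relative to their partners in the PU.1-/- wound. The actin Actc1 had a level of 1.59% of that of Acta1 in WT and 1.96% in PU.1-/-, a ratio of ratios of 1.23 (exact counting interval 1.14 to 1.33). Cardiac troponin T, Tnnt2, had 4.57% and 5.60% of the level of Tnnt3, a ratio of 1.22 (1.11 to 1.36). The embryonic light chain Myl4 had 13.5% and 15.9% of the level of Myl1, a ratio of 1.17 (1.095 to 1.26). The embryonic Myh3 did not shift in this way against the neonatal Myh8 (1.02, 0.957 to 1.09). Acta1, Tnnt3 and Myl1 are far more abundant than these partners, and the part of level in the ratios was not tested.

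Other partners went the opposite way. Atp2a2, the calcium pump of slow fibres and of many other cells, had 102 and 103 FPKM, which was 84.5% of the level of Atp2a1 in WT and 39.2% in PU.1-/-. Tpm3, a tropomyosin of slow fibres and of non-muscle cells, had 203 and 150.01 FPKM, or 56.8% and 26.0% of the level of Tpm2. The pump inhibitor Sln, made in neonatal muscle, had 224 and 304.7 FPKM, and its level relative to Atp2a1 was 0.628 times the WT one (0.595 to 0.662). Atp2a2 and Tpm3 are also made outside muscle, so that their ratios are not free of the amount of muscle in the piece of tissue. Whether the partners of the other pairs are made only in muscle fibres of this skin was not tested. Neither was the mix of fibres that each piece held.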
